A study of Mus musculus with 14 samples.

Results

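The 34 genes described here are Myc and Max, 2 subunits of RNA polymerase I (Polr1a, Polr1b), 6 genes of small nucleolar ribonucleoproteins (snoRNPs), a chaperone included (Fbl, Nop56, Nop58, Dkc1, Nolc1, Rrp9), 3 proteins of the small subunit processome (Utp20, Wdr43, Noc4l), 11 factors of large subunit assembly (Bop1, Pes1, Wdr12, Ebna1bp2, Ppan, Mrto4, Nop2, Nop16, Nip7, Rrs1, Gnl3), 4 nucleolar chaperones and RNA-binding proteins (Ncl, Npm1, Npm3, Ddx21) and 6 genes of metabolism, translation and mitochondria (Odc1, Srm, Cad, Eif4a1, Eif4e, Tbrg4). They were chosen by name, as the non-control probe of highest mean for each gene, and all 34 were found among the 14222 named genes tested. In all, 27035 features were tested, a feature being a named gene or an unnamed probe. Of the 34, 32 were well above background on all 14 arrays, Cad on 13 and Npm3 on 8.

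MYC is a transcription factor that pairs with its partner protein MAX, binds DNA at E-box sequences and raises transcription of genes for cell growth. Its best known targets make ribosomes in the nucleolus: RNA polymerase I transcribes the ribosomal RNA precursor, snoRNPs guide its modification, and large sets of assembly factors build the small and large ribosomal subunits. In the thymus, early T cell precursors divide many times before they rearrange their receptor genes, and such divisions call for new ribosomes.

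RNA was measured with 14 one-colour Agilent arrays of C57BL/6 mouse cells lacking CD4 and CD8 (double-negative, DN). Irradiated wild-type hosts had received whole bone marrow carrying Cre-ERT2, a tamoxifen-dependent Cre recombinase, which the controls (WT) carried too, alone or with Ezh2flox/flox, with p53flox/flox or with both. The labels name no promoter that limits Cre to a cell type, and hosts may keep cells of their own. Deletion followed 4 weeks after transplantation, and cells were sorted from the thymus at 3 months as DN1, which bear CD44 without CD25, DN2, which bear both, and DN3, which bear CD25 without CD44. One protocol field names bone marrow as the sorted tissue instead. The groups labelled Ezh2Δ/Δ, p53Δ/Δ and, for both deletions, Ezh2Δ/Δp53Δ/Δ are called Ezh2-deleted, p53-deleted and double-deleted below. EZH2 methylates histone H3 within Polycomb repressive complex 2, and p53, the product of Trp53, is a tumour suppressor. Each of the 4 genotypes and 3 stages had 1 array, and 2 further arrays held DN2-gated leukemic cells of 2 double-deleted mice (13 and 19) whose disease is labelled ETP-ALL, an acute leukemia of early T cell precursors. The labels do not say that the arrays of a genotype came from separate mice, nor whether mice were pooled or their age, so each p-value measures only the spread between these arrays.

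Levels are log2 intensity minus the array's 75th percentile, so that 1 unit is a doubling; probes differ in brightness, and levels of different genes are not compared. A change was called at an adjusted p under 0.05 in limma over all 27035 features, with additive terms for genotype and stage. The arrays lay on 4 slides: slide 1 held WT and double-deleted DN2 and DN3, slide 2 all Ezh2-deleted and p53-deleted arrays, slide 3 double-deleted DN1 and slide 4 both leukemias. The 75th percentile of intensity was 70.3 to 141 on slide 2 and 298 to 591 on the others, and 40.3% to 50.4% of probes were well above background per array, with none saturated. Comparisons of double-deleted with WT cells at DN2 and DN3 and of p53-deleted with Ezh2-deleted cells could therefore be made within a slide, whereas in the other genotype comparisons and for the leukemias slide and group cannot be told apart. Trp53 was not well above background on any p53-deleted array; it was above background on all 3 double-deleted arrays, at -4.06, -2.59 and -1.11 against -0.01 to 1.12 in WT. The Ezh2 probe lay at 2.23 to 4.26 on all 14 arrays; whether it lies in the deleted part is not known here, so it checks no label. All 13 early T markers were well above background on every array but that of leukemia 13, where Ptcra was not.

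**Figure D1:**
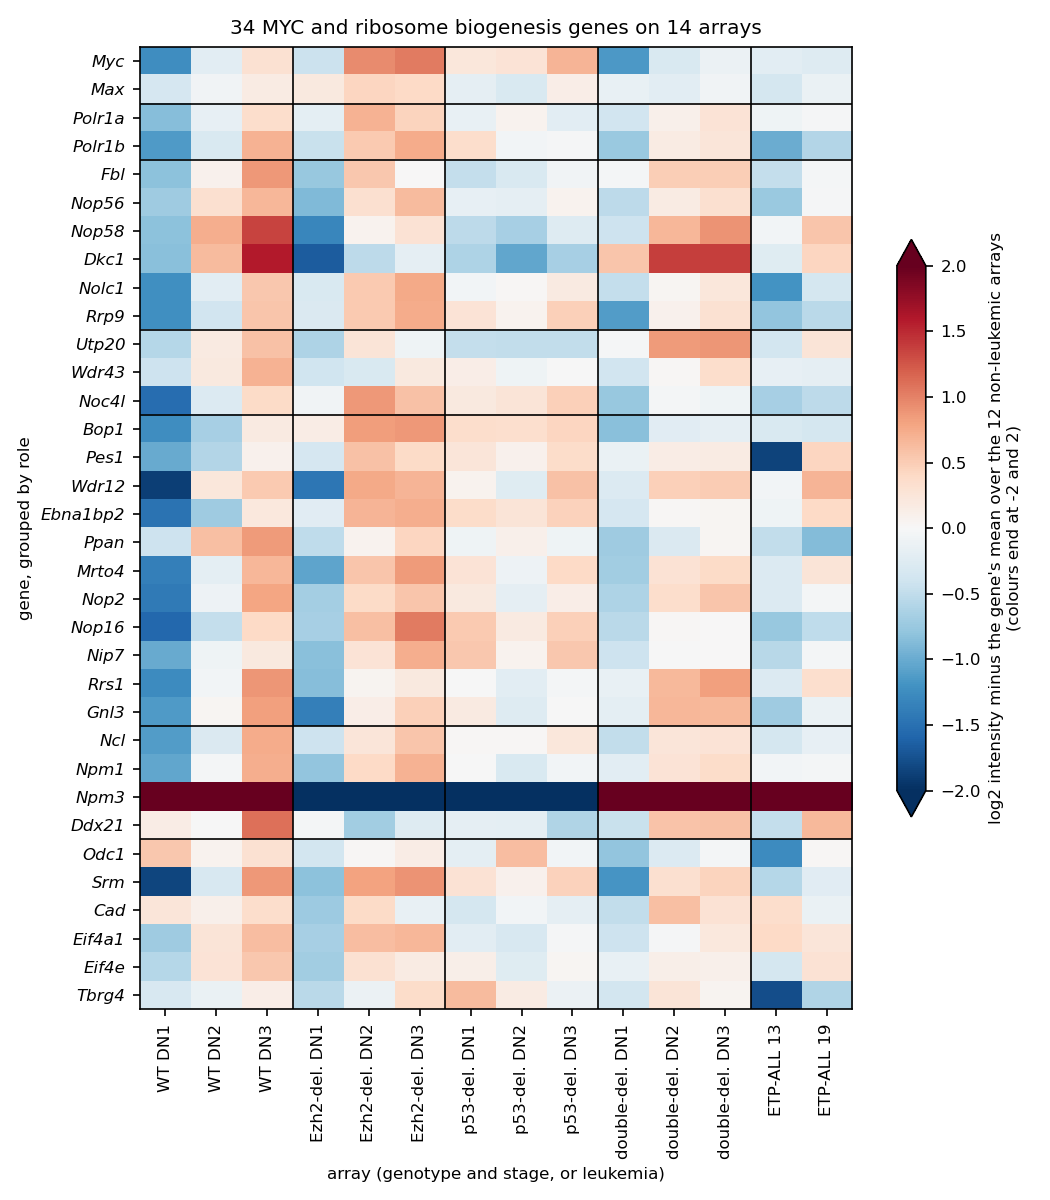
Level of each of the 34 genes (rows, grouped by role) on each of the 14 arrays (columns), as log2 intensity minus the mean of that gene over the 12 non-leukemic arrays. WT DN1 is mostly blue and WT DN3 mostly red, the 3 p53-deleted columns are pale, and Npm3 runs past both ends of the colour scale.

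A sequence motif found in a minority of the genes is shown first, since MYC and MAX bind the E-box CACGTG, which reads the same on both strands. Of the 34 genes, 28 matched an entry of the RefSeq promoter table (GRCm38.p6), each window running from 250 bases before to 50 after a transcription start. The motif lay in a window of 7 of these 28 (25%), namely Max, Utp20, Wdr43, Pes1, Nop2, Eif4a1 and Eif4e. It lay in 11.2% of the 11347 tested named genes with an entry and in 8.09% of all 27025 genes of the table. The 60 bases around the motif are printed for the 3 genes where they lie wholly upstream of the start, written 5′ to 3′ on the strand of the gene with the motif in capitals; a match of letters is not evidence of binding.
Nop2, plus strand, chr6:125131796-125131855: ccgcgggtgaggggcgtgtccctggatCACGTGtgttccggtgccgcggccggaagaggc
Eif4a1, minus strand, chr11:69672580-69672639: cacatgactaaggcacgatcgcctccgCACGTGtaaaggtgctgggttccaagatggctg
Eif4e, plus strand, chr3:138527177-138527236: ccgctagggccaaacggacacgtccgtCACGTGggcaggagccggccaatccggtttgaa
The motif shown began 60 bases upstream of the start in Nop2, 189 in Eif4a1 and 64 in Eif4e, whose window holds a second one at 228.

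The first question was how the genes change from DN1 to DN2, the step at which early thymic precursors gain CD25. No member was called, against 370 of 27035 features (1.37%), although all 34 estimates were above 0, with a median of 0.62 against 0.13 over all features. At an unadjusted limma p under 0.05 there were 16 members and 5318 features. The estimates ran from 0.05 for Ddx21, a nucleolar RNA helicase, to 1.19 for Wdr12, a partner of Bop1 and Pes1 in the PeBoW complex that matures the large subunit. The smallest adjusted p, 0.143, belonged to Myc with 0.82 ± 0.24 (SE, limma over 12 arrays). Scaling each array on probes above background on all arrays moved the median over all features from 0.13 to 0.004 and that of the members from 0.62 to 0.49; across 5 other scalings and summaries, 32 to 34 of the 34 estimates were above 0.

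The single arrays of the genotypes differed in this step, with 1 array per genotype and stage and so no measure of spread within a genotype. In WT, DN2 minus DN1 had a median of 0.94 over the members, with 31 of 34 above 0 and 27 higher by over 1.5-fold, a limit that 24.8% of all features passed. In Ezh2-deleted cells the median was 0.95, with 33 above 0 and 28 past 1.5-fold (37.4% of all features). In double-deleted cells it was 0.70, with 33 above 0 and 20 past 1.5-fold (19.3% of all features); its DN1 array lay on slide 3 and its DN2 array on slide 1, so stage and slide cannot be told apart in this step. In p53-deleted cells the members did not go the same way: the median was -0.14, 25 of 34 were below 0, and Odc1 alone was higher by over 1.5-fold (13.9% of all features). In the 3 genotypes other than p53-deleted, 30 of 34 members were higher at DN2 than at DN1 in each (32.8% of all features), the others being Max, Ddx21, Odc1 and Cad. In all 4 genotypes it was 7 (11.6% of all features): Myc, Polr1a, Fbl, Nolc1, Noc4l, Ppan and Ncl. Npm3, among the 30 and among the 28 past 1.5-fold in Ezh2-deleted cells, was not well above background on any Ezh2-deleted array. The signs of these 4 medians were the same under the 5 other scalings and summaries.

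**Figure D2:**
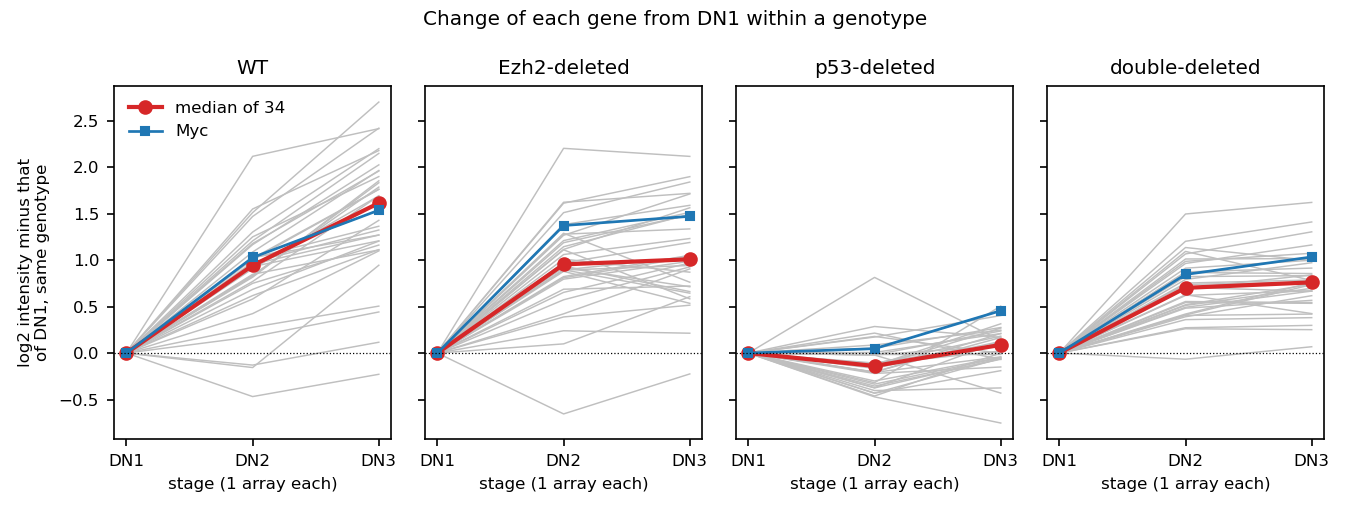
Level of each of the 34 genes at DN1, DN2 and DN3 minus its DN1 level in the same genotype (grey lines, log2), with the median (red circles) and Myc (blue squares); each point is 1 array. The median lies at 0.94 at DN2 in WT and at -0.14 in p53-deleted cells. The p53-deleted lines run from -0.47 to 0.81 at DN2 and from -0.75 to 0.51 at DN3.

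The difference of the p53-deleted step from that of the other 3 genotypes was tested in limma, a test added after the values were seen. No feature was called (0%), with 3904 of 27034 at an unadjusted p under 0.05. Of the members, 33 of 34 had a smaller step in p53-deleted cells, with a median difference of -0.996 against -0.13 over all features, and 12 had an unadjusted p under 0.05. The smallest adjusted p was 0.267, for Nop58, a core protein of box C/D snoRNPs, whose difference was -1.48 ± 0.46. The same test for each other genotype, and for DN3 over DN2 in all 4, called no feature and found no member at an unadjusted p under 0.05.

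The call for the step rested on the p53-deleted DN1 array. Without it, 13 members were called higher at DN2 and none lower, with 2442 of all features called; without all 3 p53-deleted arrays 10 were, with 3058 of all features called and a member median of 0.89. The 10 were Myc, Nop56, Nop58, Rrp9, Wdr12, Mrto4, Nop2, Gnl3, Npm3 and Srm, and Polr1b, Dkc1 and Utp20 made up the 13. Npm3 was not well above background on any Ezh2-deleted array, so its call rests in part on values at background. Without the p53-deleted arrays Wdr12 was higher by 1.69 ± 0.36 (adjusted p = 0.0326) and Srm, the spermidine synthase, by 1.54 ± 0.29 (adjusted p = 0.0242). Nop58 was higher by 1.33 ± 0.23 (adjusted p = 0.0207) and Myc by 1.08 ± 0.21 (adjusted p = 0.0282), all with limma. This choice of arrays followed from their values, so it describes the other 3 genotypes and is no separate test. Within slide 1 the member median was 1.06 and within slide 2 it was 0.41, with no member called in either.

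At DN1 the p53-deleted array was the highest of the 4 DN1 arrays for 25 of 34 members (26.4% of all features). Of these arrays, WT lay on slide 1, Ezh2-deleted and p53-deleted on slide 2 and double-deleted on slide 3. Slide and genotype cannot be told apart in this ranking, except between the arrays of slide 2. On slide 2, where both genotypes lay, p53-deleted DN1 cells exceeded Ezh2-deleted DN1 cells in 32 of 34 members. The median was 0.61 against 0.01 over all features, and 17 members were higher by over 1.5-fold (23.9% of all features). Npm3, the highest at 1.65, is among the 17 but was not well above background on either array. At DN2 the order was turned: 28 of 34 members were lower in p53-deleted cells, the median was -0.51 against -0.24, and 12 were lower by over 1.5-fold (33.5% of all features). At DN3, 33 of 34 were lower with a median of -0.39 against -0.04, and 4 were lower by over 1.5-fold (19.8% of all features). These are differences between single arrays, with no test. With normexp background correction the median at DN2 was -0.23, no lower than that of all features (0.0090 above it).

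Other measures moved with these arrays. The median level of 37 cell cycle genes was 1.39 in WT DN1, 2.27 in Ezh2-deleted DN1, 3.42 in double-deleted DN1 and 3.64 in p53-deleted DN1, and lay between 3.24 and 4.67 on the 4 DN2 arrays, lowest in p53-deleted cells. All 14 NK and innate lymphoid markers were well above background on each of the 4 DN1 arrays, with a summed level of 557 to 1099.9 times the array's 75th percentile. On the 4 DN2 arrays 5 to 14 of them were, at 121 to 578, and on the 4 DN3 arrays 4 to 6, at 218 to 596. Gzma, at 5.74 to 9.24 on these DN1, DN2 and DN3 arrays, gave the largest share of the sum on each except WT DN2. p53-deleted DN2 was the DN2 array with all 14, with a summed level of 172; Klrd1, Klre1, Klrk1 and Klra7 were above background on the DN1 arrays and that array and on none of the other 9. Of 9 B cell markers, 6 to 8 were above background at DN1, at 36.1 to 207, and 3 to 4 at DN2, at 4.76 to 21.1. Of 14 myeloid and dendritic markers it was 10 to 14 at DN1 and 9 to 13 at DN2, at 159 to 560 and 149 to 452. Siglech, at 6.40 to 8.71 on these arrays, gave the largest share of that sum on each except Ezh2-deleted DN1. In the B cell sums the largest share was that of Jchain on each DN1 array and of Cd79b on each DN2 array. The 6 later T markers measured had a summed level of 129 on p53-deleted DN2, against 32.7 to 41.2 on the other DN2 arrays, and of 244 on p53-deleted DN1, against 101 to 170 on the other DN1 arrays. Of these 6, limma called 4 lower for DN2 over DN1 (Cd5, Cd6, Cd8b1, Cd28) and 4 higher in p53-deleted than in Ezh2-deleted cells (Cd4, Cd5, Cd8b1, Cd28). The part of the cell cycle genes or of other cell types in the step was not tested. In bulk RNA, fewer cells of a type and less RNA per cell cannot be told apart. Nor can slide and genotype where these levels are compared across slides.

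**Figure D3:**
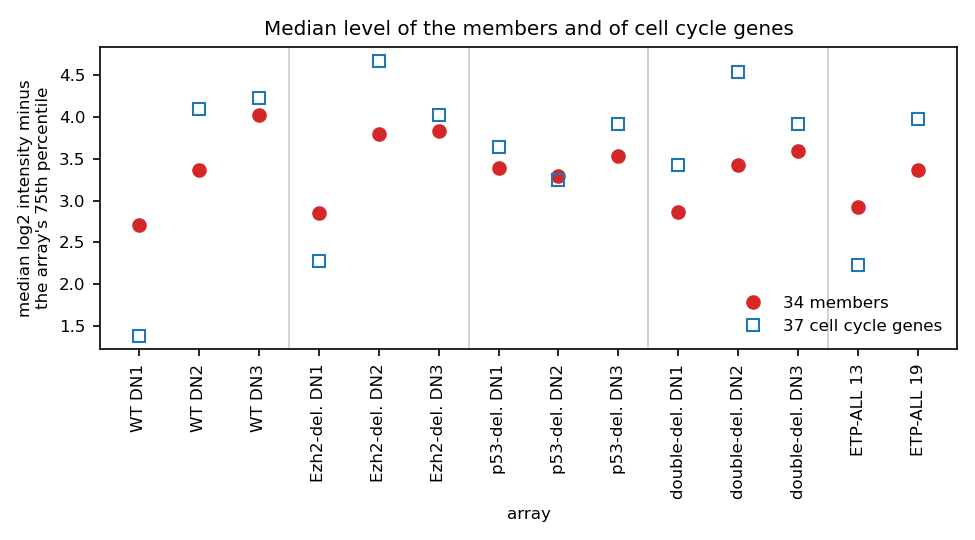
Median level (log2 intensity minus the array's 75th percentile) of the 34 genes (red circles) and of the 37 cell cycle genes tested (blue squares) on each of the 14 arrays. Within WT, both medians are lowest at DN1, 2.71 for the members and 1.39 for the cell cycle genes, and in p53-deleted cells both are lowest at DN2.

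From DN2 to DN3 no member was called, against 6 of 27035 features (0.0222%), with 1722 features and 0 members at an unadjusted limma p under 0.05. The estimates were smaller than in the step before: the median was 0.29 against 0.03, 32 of 34 were above 0, and the range was -0.18 for Cad, which starts pyrimidine synthesis, to 0.45 for Rrp9, the U3 snoRNP protein. The median was 0.11 without WT DN3, with 28 of 34 above 0, and 0.17 without p53-deleted DN2. In WT all 34 members were higher at DN3 than at DN2, with a median of 0.66 and 19 past 1.5-fold (12.4% of all features). The medians were 0.18 in Ezh2-deleted, 0.24 in p53-deleted and 0.07 in double-deleted cells, where 0, 1 and 0 members passed 1.5-fold (15.0%, 23.0% and 7.29% of all features). Across all 4 genotypes 18 members were higher at DN3 in each (8.33% of all features). WT cells thus had the larger step on these arrays, by a median of 0.57 against the other 3 genotypes, with 33 of 34 members above 0, but no member and no feature was called for that difference.

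Myc itself was at 1.81, 2.84 and 3.35 in WT DN1, DN2 and DN3 and at 1.90, 2.74 and 2.93 in double-deleted cells. It was at 2.62, 3.99 and 4.09 in Ezh2-deleted cells and at 3.27, 3.31 and 3.72 in p53-deleted cells. Leukemia 13 had 2.84 and leukemia 19 had 2.80. Myc was lowest at DN1 in each genotype, and p53-deleted DN1 was above WT and double-deleted cells at all stages except WT DN3. The p53-deleted arrays lay on another slide than those of WT and double-deleted cells, so slide and genotype cannot be told apart here. Max, through which MYC binds DNA, moved over a narrow range of 0.78 across the 14 arrays. It was at 3.82, 4.09 and 4.32 in WT, 4.35, 4.59 and 4.56 in Ezh2-deleted, 3.98, 3.85 and 4.30 in p53-deleted and 4.01, 3.95 and 4.08 in double-deleted cells. The leukemias had 3.81 and 4.03. Its DN2 over DN1 estimate of 0.08 changed sign under 3 scalings and was not called under any.

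Polr1a, the largest subunit of RNA polymerase I, was at 1.99, 2.67 and 3.19 in WT and at 2.65, 3.54 and 3.29 in Ezh2-deleted cells. In p53-deleted cells it was at 2.70, 2.92 and 2.63, in double-deleted cells at 2.45, 2.95 and 3.12, and in the leukemias at 2.76 and 2.81. It was lowest at DN1 in every genotype but p53-deleted, where DN3 was lowest. Eif4a1, an RNA helicase of translation initiation, was at 6.45, 7.43 and 7.77 in WT, 6.496, 7.78 and 7.83 in Ezh2-deleted, 6.96, 6.84 and 7.14 in p53-deleted and 6.75, 7.14 and 7.37 in double-deleted cells. In the leukemias it was at 7.57 and 7.40, both within the range of the DN2 and DN3 arrays.

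The study combined both deletions, and the direct question was how double-deleted cells differ from WT. No member was called, while 2021 of 27035 features (7.48%) were; 2 members and 7478 features had an unadjusted limma p under 0.05. The median was 0.17 against -0.14 over all features, with 22 members above 0 and 12 below. The highest were Dkc1, the pseudouridine synthase of box H/ACA snoRNPs, with 0.65 ± 0.42 (adjusted p = 0.352) and Wdr12 with 0.61 ± 0.47 (adjusted p = 0.432). The lowest were Odc1, the first enzyme of polyamine synthesis, with -0.67 ± 0.29 (adjusted p = 0.169) and Ppan, a large subunit factor, with -0.67 ± 0.26 (adjusted p = 0.136). Myc differed by -0.14 ± 0.28 (adjusted p = 0.776), an estimate that was 0.059 with normexp. All members but Pes1 also stayed uncalled with normexp, under which 9884 features were called.

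On slide 1 the sign of this difference turned between stages. At DN2, 25 of 34 members were higher in double-deleted than in WT cells, with a median of 0.41 against -0.19 over all features and 7 higher by over 1.5-fold (16.5% of all features). At DN3, 32 of 34 were lower, with a median of -0.35 against -0.22 and Ppan alone lower by over 1.5-fold (20.0% of all features). Both compare single arrays and have no test. Under quantile normalization the DN3 median was -0.064, and relative to all features it lay between -0.13 and 0.071 across the 5 other scalings and summaries. The fitted median over all stages depended on single WT arrays: it was -0.03 without WT DN1 and 0.47 without WT DN3, and 0.03 within slide 1.

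Between p53-deleted and Ezh2-deleted cells, all on slide 2, no member was called against 1059 of 27035 features (3.92%), with 2 members and 5211 features at an unadjusted limma p under 0.05. The median was -0.03 against -0.07, with 14 members above 0 and 20 below; its sign was turned under 3 other scalings, where it lay at 0.079 to 0.11, and the differences of opposite sign at DN1 and at the later stages are given above. Max differed by -0.45 ± 0.20 (adjusted p = 0.256) and Myc by -0.13 ± 0.28 (adjusted p = 0.829). Npm3 had the smallest adjusted p, 0.0874, but was not well above background on any of these 6 arrays, so no fold is given. Without p53-deleted DN1 the member median was -0.43, and without p53-deleted DN3 it was 0.16.

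**Figure D4:**
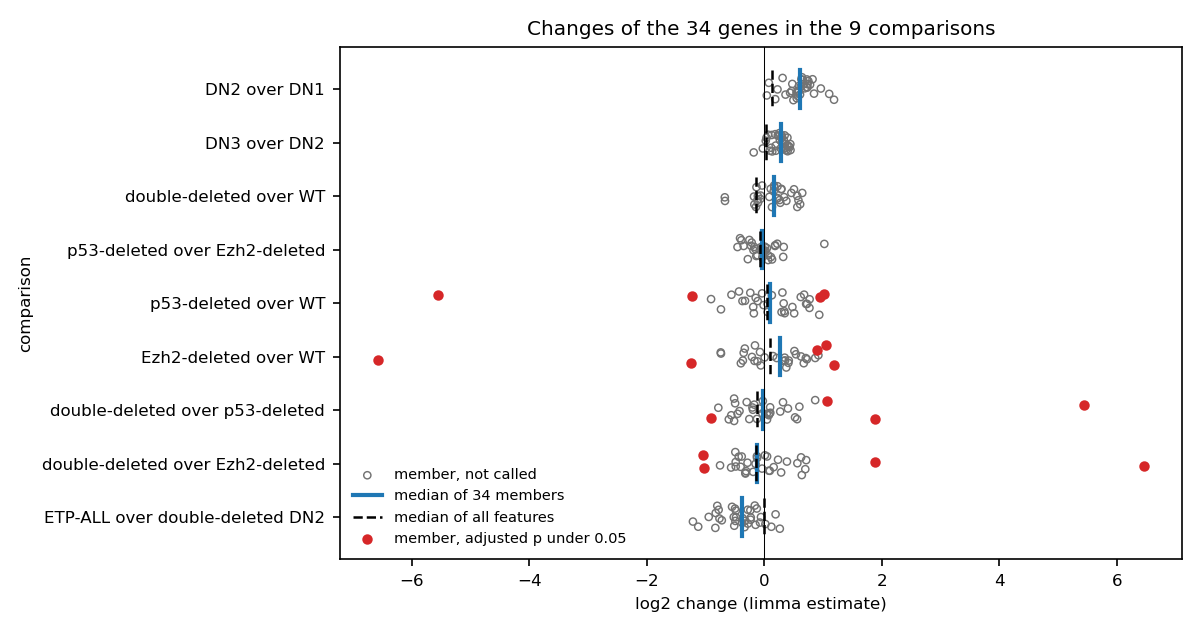
limma estimates (log2) of the 34 genes in the 9 comparisons; open circles were not called, red points had an adjusted p under 0.05, the blue bar is the median of the members and the dashed bar that of all features. All called members lie in the 4 comparisons of arrays on different slides, and all 34 points of DN2 over DN1 lie above 0.

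In the 4 comparisons across slides, members were called at rates below that of all features. Against WT, 4 of 34 members (11.8%) were called in p53-deleted cells, where 9701 features (35.9%) were, and 5 (14.7%) in Ezh2-deleted cells, where 9222 (34.1%) were. Double-deleted cells differed from p53-deleted cells in 4 members (11.8%; 31.3% of all features) and from Ezh2-deleted cells in 4 (11.8%; 30.1%). The 4 comparisons share arrays, so the same gene can be called in several through 1 group. Slide and genotype cannot be told apart in any of them.

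Dkc1 was lower on slide 2 than on most arrays of the other slides. It was at -0.42, 1.05 and 1.999 in WT and at 0.97, 1.79 and 1.80 in double-deleted cells, against -1.25, -0.10 and 0.24 in Ezh2-deleted and -0.19, -0.62 and -0.25 in p53-deleted cells. The leukemias had 0.17 and 0.85. The double-deleted values lay above all 6 values of slide 2, whereas WT DN1 lay among them. Dkc1 differed from WT by -1.24 ± 0.42 in Ezh2-deleted cells (limma adjusted p = 0.0481) and by -1.23 ± 0.42 in p53-deleted cells (adjusted p = 0.0481), and double-deleted cells were 1.89 ± 0.42 above Ezh2-deleted (adjusted p = 0.0105) and 1.88 ± 0.42 above p53-deleted cells (adjusted p = 0.0104). Leaving out single arrays lost the call against WT in 8 of 12 fits for Ezh2-deleted and in 10 of 12 for p53-deleted cells.

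Bop1, the scaffold of the PeBoW complex, and Ebna1bp2, another large subunit factor, were called higher than WT in both genotypes of slide 2. Bop1 was at 2.97, 3.55 and 4.40 in WT and 3.37, 3.99 and 4.04 in double-deleted cells, against 4.36, 5.05 and 5.08 in Ezh2-deleted and 4.56, 4.54 and 4.64 in p53-deleted cells. Only WT DN3 reached the slide 2 range. Ebna1bp2 was at 4.05, 4.82 and 5.74 in WT and 5.18, 5.54 and 5.57 in double-deleted cells, against 5.30, 6.20 and 6.25 in Ezh2-deleted and 5.89, 5.78 and 5.99 in p53-deleted cells. The leukemias had 3.91 and 3.87 for Bop1 and 5.44 and 5.93 for Ebna1bp2. For Ebna1bp2, WT DN3, double-deleted DN2 and DN3 and both leukemias lay within the slide 2 range. Bop1 was called higher than WT in Ezh2-deleted (1.19) and p53-deleted cells (0.94) and Ebna1bp2 in both (1.05 and 1.02); Bop1 was also lower in double-deleted than in Ezh2-deleted cells, by -1.03. In 12 fits without 1 array each, Ebna1bp2 lost its call in 5 for p53-deleted and in 4 for Ezh2-deleted over WT. Bop1 lost it in 3 for p53-deleted over WT, in 0 for Ezh2-deleted over WT and in 6 for double-deleted over Ezh2-deleted. With the median over its 3 probes, Ebna1bp2 was called in neither comparison with WT. Its call was also lost with normexp for Ezh2-deleted over WT and without a filter on dim probes for p53-deleted over WT. Bop1 lost its call for double-deleted over Ezh2-deleted with normexp.

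Utp20, a large scaffold protein of the small subunit processome, was called between double-deleted and p53-deleted cells, with 1.06 ± 0.27. It was at -0.90, -0.15 and 0.26 in WT, -0.95, -0.07 and -0.41 in Ezh2-deleted, -0.81, -0.83 and -0.83 in p53-deleted and -0.35, 0.52 and 0.56 in double-deleted cells, and at -0.70 and -0.07 in the leukemias. Utp20 is described because it was called, so these values are no separate support. Myc was called higher in Ezh2-deleted than in WT cells (0.91 ± 0.28, limma adjusted p = 0.0328) and lower in double-deleted than in Ezh2-deleted (-1.05) and p53-deleted cells (-0.91). In 12 fits without 1 array each, these Myc calls were lost in 7, in 5 (against Ezh2-deleted) and in 7 (against p53-deleted), and that of Utp20 in 4. With normexp background correction none of these Myc calls was kept, while that of Utp20 was. Without a filter on dim probes the Myc call for Ezh2-deleted over WT was lost too.

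Npm3, a nucleolar histone chaperone related to Npm1, was at 0.57, 1.52 and 1.84 in WT, at 0.49, 1.62 and 1.48 in double-deleted cells and at 0.31 and 1.01 in the leukemias. On slide 2 it was not well above background, with measured values of -5.86, -5.06 and -4.87 in Ezh2-deleted and -4.21, -4.33 and -4.18 in p53-deleted cells. WT was at least 27.6-fold above Ezh2-deleted and at least 33.8-fold above p53-deleted cells, and double-deleted cells were at least 25.5-fold and 31.3-fold above them, each bound taken against the lowest signal well above background on the dim arrays. Double-deleted cells, which carry both deletions, differed from WT by -0.11 ± 0.28 (limma adjusted p = 0.824). In all, 431 features, 143 of them named genes, were above background on all 8 arrays of the other slides and on none of slide 2, and 12 features showed the reverse.

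**Figure D5:**
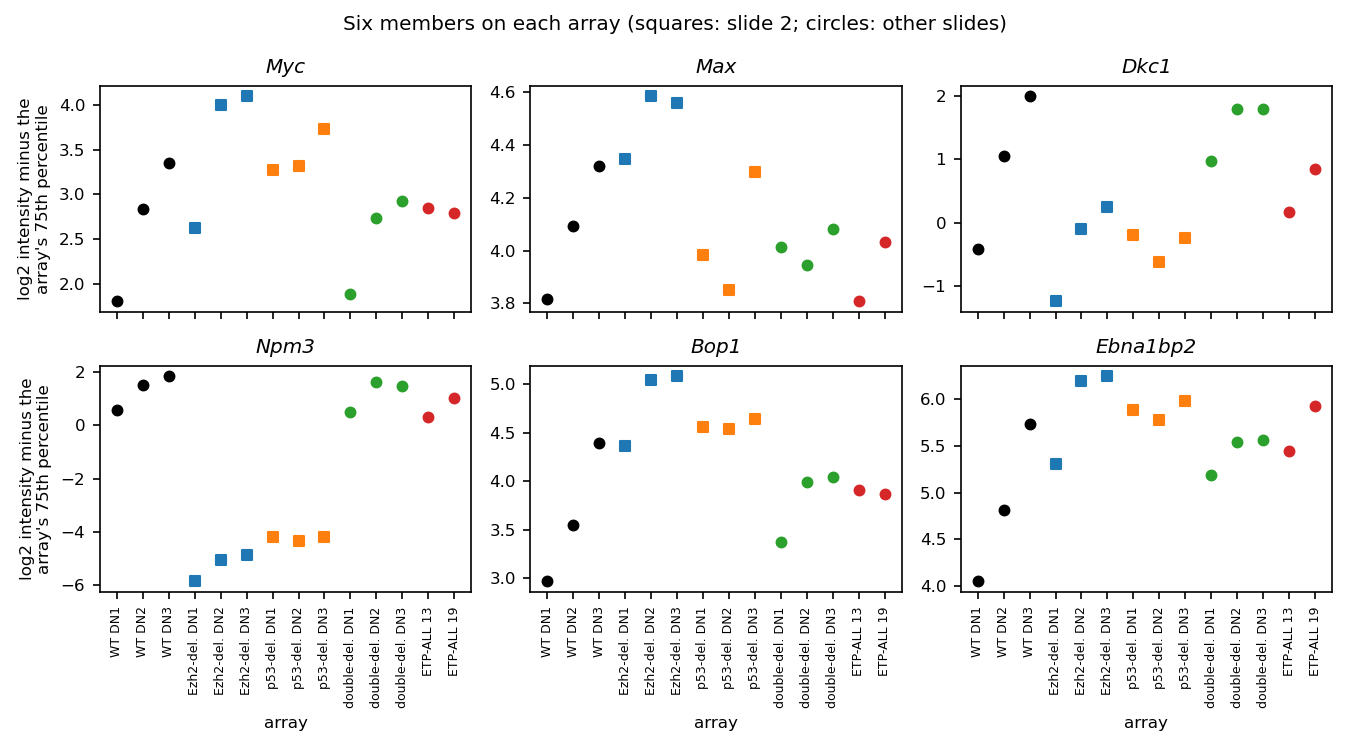
Level of 6 of the genes (log2 intensity minus the array's 75th percentile) on each of the 14 arrays, coloured by genotype or leukemia; squares are arrays of slide 2. The vertical axes differ between panels; Npm3 lies between -5.86 and -4.18 on slide 2 and above 0 on all other arrays.

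The leukemic cells were set against the fitted level of double-deleted DN2 cells, the stage whose gate they passed. No member was called, against 659 of 27035 features (2.44%), with 2 members (Tbrg4 and Utp20) and 4827 features at an unadjusted limma p under 0.05. The median was -0.37 against -0.00, and 30 of 34 members were below 0, with 29 to 31 below 0 over 5 other scalings and summaries. The lowest were Tbrg4, a mitochondrial RNA-binding protein, with -1.21 ± 0.45 and Dkc1 with -1.12 ± 0.51, and the highest was Eif4a1 with 0.27 ± 0.34. Myc differed by 0.12 ± 0.32 (adjusted p = 0.878). Ebna1bp2 was 0.19 by its chosen probe but -1.17 and -0.38 by its other 2 probes.

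The leukemias differed from each other. Against the double-deleted DN2 array, leukemia 13 had a median of -0.68, with 32 of 34 members below 0 and 20 lower by over 1.5-fold (23.4% of all features). In leukemia 19 the median was -0.31, with 25 below 0 and 8 lower by over 1.5-fold (21.2% of all features). The 25 members lower in both (36.3% of all features) left out Myc, Max, Pes1, Wdr12, Ebna1bp2, Ddx21, Odc1, Eif4a1 and Eif4e. Pes1, of the PeBoW complex, was at 0.41 in leukemia 13 and at 2.70 in leukemia 19, against 1.26 to 2.85 on the other 12 arrays, and it was called lower when leukemia 19 was left out. The cell cycle genes had a median of 2.23 in leukemia 13 and 3.98 in leukemia 19, against 4.54 in double-deleted DN2. Of 10 stroma and endothelium markers, 6 were above background in leukemia 13 and 2 in leukemia 19, against 3 in double-deleted DN2, with summed levels of 4.67, 2.84 and 0.983; Cdh5 was at 0.95 in leukemia 13 and at -6.10 to -4.87 on the other 13 arrays. The NK and innate lymphoid markers summed to 898 and 904 in the leukemias against 220.4 in double-deleted DN2, with 7, 7 and 8 of 14 above background. Gzma, at 9.79, 9.76 and 7.70 on these arrays, made up most of each sum. Klrd1, Klre1, Klrk1, Klrb1c, Klra7, Klra8 and Ncr1 were above background in neither leukemia. limma called Epcam higher and Ptcra and Cd8a lower in the leukemias. The part of these in the members' levels was not tested. Pes1, Tbrg4, Wdr12, Srm, Odc1, Ppan and the other genes named for extreme values in this and the earlier comparisons were chosen after their values were seen.

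Of 6 further lists, on the MYC network, RNA polymerase I transcription, snoRNP assembly, the small subunit processome, large subunit assembly, and metabolic and translation targets of MYC, 175 of 180 genes were tested. None was called for either stage step or for the leukemias, with list medians of -0.15 (MYC network) to 0.70 (snoRNP assembly) for DN2 over DN1. In p53-deleted over WT cells 25 were higher and 17 lower (24%), in Ezh2-deleted over WT 24 and 15 (22.3%), in double-deleted over p53-deleted 18 and 13 (17.7%) and over Ezh2-deleted 18 and 18 (20.6%), all across slides and below the shares of all features given above.

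In double-deleted over WT cells 2 of the 175 were called (1.14%, against 7.48% of all features), and in p53-deleted over Ezh2-deleted cells 1 (0.571%, against 3.92%), both below the general rate. Fits within 1 slide, on fewer arrays and with fewer residual degrees of freedom, called none of the 3. Slc7a5 and Slc3a2 encode the chains of an importer of large neutral amino acids, and both were lower in double-deleted than in WT cells. Slc7a5 was at 1.72, 2.66 and 1.78 in WT DN1, DN2 and DN3 and at -0.63, 0.13 and 0.79 in double-deleted cells, a change of -1.96 ± 0.35 (limma adjusted p = 0.0169). Slc3a2 was at 5.81, 5.78 and 5.98 in WT and at 4.74, 4.94 and 5.28 in double-deleted cells, a change of -0.87 ± 0.21 (adjusted p = 0.0455). Both genes were named because they were called, so these values are no separate support. Within slide 1 the changes were -1.76 (limma adjusted p = 0.171) and -0.77 (adjusted p = 0.196), and the calls were lost in 4 and 11 of 12 fits without 1 array. With slide as a fixed block the changes were -1.86 (limma adjusted p = 0.0806) and -0.76 (adjusted p = 0.173). Mycn, the MYC relative of many progenitor cells, was lower in p53-deleted than in Ezh2-deleted cells by -2.22 ± 0.48 (adjusted p = 0.04). It was at -2.66, -0.49 and -0.17 in p53-deleted cells and at 0.87, 1.14 and 1.33 in Ezh2-deleted cells. WT lay at 0.73, 1.54 and 1.45, double-deleted cells at 1.297, 0.70 and 1.18, and leukemias 13 and 19 at -1.60 and 1.06. Both genotypes lay wholly on slide 2, so a fit to slide 2 alone kept the Mycn estimate of -2.22 and only lost degrees of freedom (limma adjusted p = 0.143). With slide as a fixed block its adjusted p in limma was 0.0322. The Mycn call was lost in 9 of 12 fits without 1 array.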

How the data were processed

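The values are spot intensities from the authors' deposited scanner files; per the file headers, Agilent Feature Extraction made the processed intensity, with correction settings not given in the sources used here. Per the labels, 20 ng of RNA was amplified and labelled with Cy3. The authors' deposited value table holds a per-array scaled linear signal: its columns have 75th percentiles of 1.002 to 1.004 and medians of 0.065 to 0.105, with no centring and the direction of the scanner values. The sources used here do not say how it was normalized.

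Here, log2 processed intensity minus the array's 75th percentile was used, without control and outlier spots, with spots of a probe averaged (59305 spots, 55681 probes). The scanner files hold no gene symbols, so probes were named by their RefSeq accession through a GRCm38.p6 gene table, which named 27656 probes. The files' grid build, mm9, differs, so no coordinates were taken from them. A gene was its probe of highest mean, and features well above background on at least 2 of 14 arrays were tested. limma 3.58.1 (R 4.3.3) fitted genotype and stage to 12 arrays, with 6 residual and 2.86 prior degrees of freedom, and a leukemia term to all 14, with 7; p-values were adjusted by Benjamini-Hochberg over all features. On simulated arrays, where a small random share of all features was changed, the DN2 over DN1 fit called 19.4% of features with a true log2 step of 1. It called 70.1% of those with a step of 2 and 97.0% of those with 4. Most changes of 1 unit thus went uncalled in that simulation. The simulated features included dim ones, and the real step may change more features, so these rates need not hold for the 34 genes. The number of arrays limits the precision. All 34 genes are accounted for; values on every array are given for Myc, Max, each called member, and the member of highest mean of any role otherwise without one, and other pathway genes are named only if called in double-deleted over WT or p53-deleted over Ezh2-deleted cells; genes named for extreme values were chosen after seeing them. Alternatives were other scalings, background correction, filters, probe summaries, the authors' table, slide as a block and leaving out arrays. The members and lists were chosen with earlier results of these data known.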

Additional observations from a re-analysis of the deposited data

Results flagged for a closer look

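The median DN2 over DN1 change of the 34 genes in p53-deleted cells was -0.14, opposite in sign to the medians of 0.94, 0.95 and 0.70 in WT, Ezh2-deleted and double-deleted cells, each from 1 array a stage. The difference between these medians was not tested; gene by gene, limma called 0 of the 34 members, with 12 at an unadjusted p under 0.05.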

How the results depend on the processing

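The count of called members stayed at 0 for DN3 over DN2 under every alternative run. Elsewhere it moved by over 1.5 times as follows, smaller moves being left out, with the share of all features called in brackets. Without all p53-deleted arrays 10 of the 34 were called for DN2 over DN1 (11.3%). With normexp it was 1 for double-deleted over WT (36.6%) and 8 for Ezh2-deleted over WT (50.9%). Also with normexp it was 8 for double-deleted over p53-deleted (58.7%) and 10 for double-deleted over Ezh2-deleted (60.3%). With the percentile over probes above background on all arrays it was 1 for p53-deleted over Ezh2-deleted (3.22%) and 8 for p53-deleted over WT (34.9%). For p53-deleted over WT it was 7 with quantile normalization (39.0%) and 2 without a filter on dim probes (18.7%). With slide as a random block it was 9 for p53-deleted over WT (46.1%) and 8 for Ezh2-deleted over WT (44.8%). Without a filter it was 3 for Ezh2-deleted over WT (17.0%). Leaving out 1 array gave 0 to 13 members for DN2 over DN1, 0 to 0 for DN3 over DN2, double-deleted over WT and p53-deleted over Ezh2-deleted, 1 to 5 for p53-deleted over WT, 2 to 9 for Ezh2-deleted over WT, 2 to 5 for double-deleted over p53-deleted, 1 to 6 for double-deleted over Ezh2-deleted and 0 to 1 for the leukemias. The share of all features called in these fits was 0.518% to 9.03% for DN2 over DN1. It was 25.0% to 34.9% for p53-deleted over WT and 22.5% to 36.1% for Ezh2-deleted over WT. For double-deleted cells it was 17.6% to 33.3% over p53-deleted and 14.8% to 32.3% over Ezh2-deleted cells. Estimates that changed sign were uncalled: Max for DN2 over DN1 (-0.048 by percentile, -0.055 by quantile, -0.042 by normexp), Myc for double-deleted over WT (0.059 by normexp) and Myc for p53-deleted over Ezh2-deleted (0.024 by quantile, 0.032 without Ezh2-deleted DN2, 0.062 without p53-deleted DN2; -0.46 to 0.062 over all fits without 1 array). Over all features, double-deleted over WT called 2021 (972 higher, 1049 lower), but 9884 with normexp (1797 and 8087), 1160 by the percentile over probes above background on all arrays (778 and 382), 549 with slide as a fixed block (444 and 105) and 461 within slide 1 (413 and 48). Stage and p53-deleted comparisons moved too: DN2 over DN1 called 370 features but 5 within slide 2, 667 within slide 1 and 130 among features above background on all arrays; p53-deleted over Ezh2-deleted called 1059 but 90 within slide 2, 337 with normexp and 518 among features above background on all arrays; the leukemias called 659 but 1545 with normexp, 1198 with the random block and 423 among features above background on all arrays. The causes of these shifts were not tested. No paired analysis was possible because the groups share fewer than 2 replicate numbers, each having a single array; the genotype term of the fit already sets stages against each other within a genotype. With 1 array per genotype and stage, low signal on slide 2 and few residual degrees of freedom, changes within the spread between these arrays could not be told from none.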
